A study of Mus musculus with 3 samples.

Results

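TM9 is 1 of the groups into which the authors divided the trabecular meshwork and uveal cells of the mouse iridocorneal angle and limbus, and it was named as uveal stroma. Its members were the kept cells that carried the authors' label for this group, matched by barcode to the UMI counts of each of 3 droplet libraries. They were 829 of 26008 kept cells, of which the first control library gave 204, the second 298 and the *Angpt1*ΔNC library 327. The neighbouring groups TM6, TM7 and TM8, with 253, 1580 and 1358 cells, served for contrast. *Pdgfrb* and *Nrp2* are the markers given for the group.

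The uveal stroma is the loose connective tissue of the iris, ciliary body and choroid, and much of it derives from the cranial neural crest. Its fibroblast-like cells surround the vessels, muscle and pigment cells of the uvea, lay down matrix and release cytokines and growth factors. Neural crest-derived cells of the angle also express *Angpt1*, which encodes angiopoietin-1, the activating ligand of the receptor tyrosine kinase TEK on the endothelium of Schlemm's canal. PDGFRB is a receptor for platelet-derived growth factor found on stromal and mural cells, and NRP2 is a co-receptor for class 3 semaphorins and for VEGF family members.

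The control mice were *Angpt1* flox/flox, and the *Angpt1*ΔNC mice were *Angpt1* flox/flox;Wnt1Cre+, so that all mice carried floxed alleles and only the *Angpt1*ΔNC mice carried Cre, expressed in the neural crest lineage. All were 6 weeks old, of mixed strain, and each library came from a pool of 2 to 3 mice. There was thus 1 library of the mutant genotype, and every p-value between genotypes assumes that this library would vary like the 2 controls. The Wnt1-Cre transgene lies at the locus of a histone gene listed in these files as *H2afv*, and most of the iris had been removed before dissociation.

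Mean level denotes the mean over cells of a gene's UMIs per 10,000 UMIs of the cell, and it was compared for 1 gene at a time. The TM9 cells held 1024627, 1539849 and 2107866 UMIs (control replicates 1 and 2 and then *Angpt1*ΔNC, the order used throughout), with medians of 5077.5, 5101 and 5967 UMIs per cell. Median mitochondrial shares were 3.55% to 4.65%, and the pools differed in sex. No TM9 cell of either control held a UMI of *Xist*, the X-inactivation transcript of female cells, although the methods describe both sexes, which allows shares of up to 1.47% and 1.01%, whereas 199 of 327 cells (60.9%) did in *Angpt1*ΔNC. In the corneal and limbal epithelium, *Xist* was likewise found in 0% of control cells, with limits of 0.303% and 0.296%, and in 57.5% of *Angpt1*ΔNC cells. Sex and genotype thus cannot be told apart in the pooled cells, so counts are given beside those from male-typed cells, which held a Y-linked UMI and no *Xist* (142, 219 and 96 TM9 cells). No barcode was shared by TM9 cells of different libraries, and 5 TM9 cells shared one with a kept cell of another group in another library, 2 from control replicate 2 and 3 from *Angpt1*ΔNC.

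The markers of the group were widespread in it. *Pdgfrb* was found in 64.2% (95% exact Clopper-Pearson interval 57.2 to 70.8) and 66.1% (60.4 to 71.5) of TM9 cells of the controls and in 48.6% (43.1 to 54.2) of those of *Angpt1*ΔNC. In the epithelium, which should lack it, the shares were 0.708%, 0.791% and 0.549%, in cells with medians of 15135 to 17717 UMIs. *Nrp2* was found in 51.0% (43.9 to 58.0), 59.7% (53.9 to 65.3) and 59.9% (54.4 to 65.3) of TM9 cells, but also in 39.6%, 32.2% and 36.4% of epithelial cells, so its mean level tells more, at 1.83, 2.38 and 1.84 in TM9 against 0.405, 0.283 and 0.363 in the epithelium. All these intervals cover counting error only. A UMI of at least 1 of the 2 markers was found in 81.9%, 84.9% and 79.5% of TM9 cells. Neither marker separated TM9 from the groups beside it. The *Pdgfrb* level in TM9 of the controls was 2.86 and 2.61, close to the 3.03 and 2.47 of TM6 and the 2.39 and 2.34 of TM8, and above the 1.65 and 1.58 of TM7. The *Nrp2* level of TM9 was above the 1.02 and 1.30 of TM8 in both controls, and close to the 1.69 and 2.05 of TM6 and the 1.68 and 1.75 of TM7.

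Many markers of other cell types were at or near 0 in TM9, but *Emcn*, *Pdpn* and some smooth muscle markers were not. A UMI of a defining marker of another cell type was found in 32.4%, 26.8% and 32.1% of TM9 cells. Of the 8 endothelial markers, 1 was found in over 10% of the cells of each control and 3 in *Angpt1*ΔNC, and the summed level of the list was 3.14, 3.30 and 3.33. *Tek*, the angiopoietin receptor, was at 0 in all 3 libraries, and *Cdh5*, which encodes VE-cadherin, was at 0 in control replicate 2 and *Angpt1*ΔNC. Nearly all of the list in the controls was *Emcn*, which encodes endomucin and had levels of 3.04, 3.18 and 1.53. The smooth muscle list had summed levels of 3.02, 3.55 and 7.41, led in *Angpt1*ΔNC by *Tagln*, a gene of contractile cells, at 1.01, 1.42 and 4.86. Summed levels were 0.234 to 0.438 for the immune list, with *Ptprc* at 0 in both controls, 0.0742 to 0.145 for glia, 0.0788 to 0.362 for retinal pigment epithelium, 0.824 to 1.30 for melanocytes, 0.753 to 1.78 for keratocytes and 0.573 to 0.890 for surface epithelium. They were 1.21 to 1.50 for *Cd34* adventitial fibroblasts, 2.70 to 3.98 for the lymphatic list, which was almost wholly *Pdpn*, 0.923 to 1.10 for pericytes, with *Higd1b* at 0 throughout, 0.146 to 0.251 for corneal endothelium and 0.180 to 0.210 for ciliary epithelium. The trabecular meshwork list stood at 1.51 and 2.83 in the controls and 0.0830 in *Angpt1*ΔNC.

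TM9 made up a larger share of the cells in *Angpt1*ΔNC than in either control. It was 2.25% (1.95 to 2.57) and 2.93% (2.61 to 3.28) of kept cells in the controls and 4.83% (4.33 to 5.37) in *Angpt1*ΔNC. The *Angpt1*ΔNC share was 1.86 times the control mean and 1.65 times the higher control, while the controls differed 1.30-fold from each other. No test between genotypes was made for shares. Among male-typed cells the shares were 2.25%, 2.99% and 4.82%. TM7 and TM8 stood the other way, at 7.35%, 7.27% and 2.57% and at 6.51%, 6.02% and 2.29% of kept cells, whereas TM6 was at 1.23%, 0.896% and 0.738%. Over TM6 to TM9 alone, TM9 therefore went from 13.0% and 17.1% in the controls to 46.3%. The border between TM9 and each of the other groups differed between libraries too. When each cell was given to the group whose summed UMI profile in control replicate 1 made its counts most likely, 117 of the 155 *Angpt1*ΔNC cells labelled TM8 (75.5%) were nearest to TM9, against 82 of 612 (13.4%) in control replicate 2. With profiles of control replicate 2, 92 of the 155 (59.4%) were nearest to TM9, against 16 of 591 (2.71%) in control replicate 1. TM9 then took 68.8% and 63.0% of the TM6 to TM9 cells of *Angpt1*ΔNC.

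**Figure D1:**
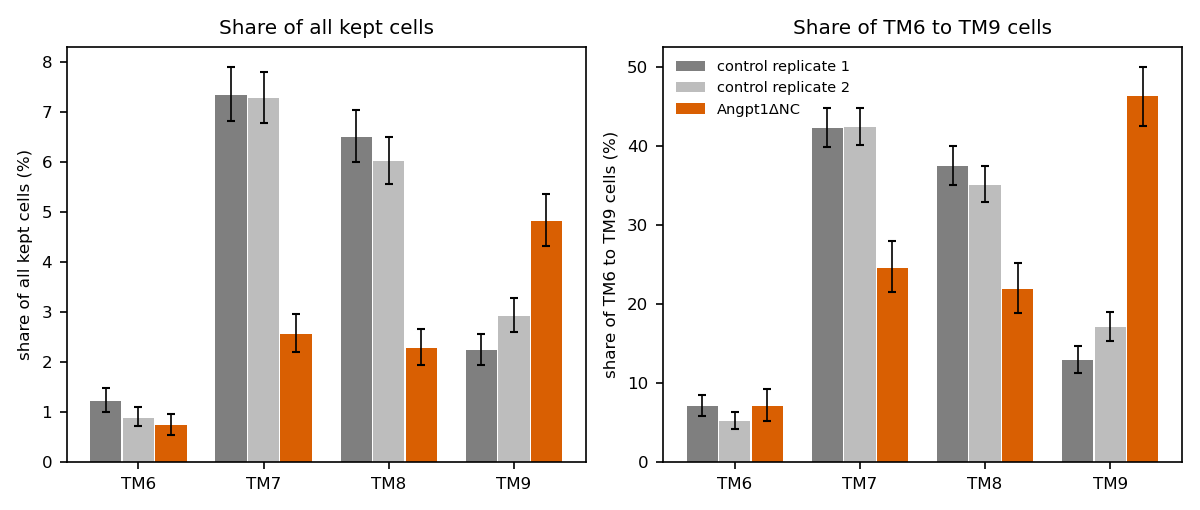
Share of each group TM6 to TM9 among all kept cells (left) and among TM6 to TM9 cells (right), in percent, for each library, with bars from 0 and 95% exact intervals that cover counting error only. TM9 is the one group of these whose bar was highest in *Angpt1*ΔNC among all kept cells, at 4.83%.

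Within the controls, the genes that set TM9 apart from all of TM6, TM7 and TM8 were few. Since the groups were made from expression values of these cells, these levels are a description with no test. Of 2029 genes found in at least 25% of TM9 cells of both controls, 7 (0.345%) had at least 2 times the level of each of the other groups in both controls. They encode a secreted ligand, matrix-binding proteins, a channel and a complement component. *Inhba*, which encodes the activin A subunit, had levels of 2.53 and 3.51 in TM9 against at most 0.934 in the other groups of the controls. *Itih5* and *Itih2* encode heavy chains of the inter-alpha-trypsin inhibitor, which bind hyaluronan, and had levels of 6.38 and 5.23 and of 1.25 and 1.21. *Spp1*, which encodes osteopontin, stood at 63.3 and 61.3 against at most 20.7 elsewhere, and *Ptn*, which encodes the growth factor pleiotrophin, at 25.1 and 29.5 against at most 10.7. The water channel gene *Aqp1* had levels of 2.58 and 3.21, and *C4b*, a complement component, of 1.30 and 3.48, so that this last gene differed widely between the controls. Just inside the limit, *C4b* exceeded its nearest group 2.35-fold, and just outside it *Ccl2*, which encodes a monocyte-attracting chemokine, did so 1.99-fold and *Chp2* 1.93-fold. *Itga8*, *Ncald* and *Ecm1* followed at 1.91-, 1.79- and 1.79-fold.

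In the other direction, 1 of 1363 genes (0.0734%) had at most 0.5 times the level of each neighbour in both controls. It was *Mfap5*, a microfibril component, at 0.700 and 0.359 in TM9 and 7.65 and 7.45 in TM7. The next lowest were *Gpc3*, a glypican, at 0.630 times its nearest group, *Cpe* at 0.643, *Smoc1* at 0.679, *Igfbp4* at 0.695, *Ltbp4* at 0.705 and *Tm2d2* and *Nr4a1* at 0.739 each. The same 7 leading genes were highest in TM9 among the 4 groups in *Angpt1*ΔNC too, with smaller gaps than the 2.35- to 3.49-fold of the controls. The control gaps had chosen these genes, so the gaps of the genotypes cannot be compared like for like. In *Angpt1*ΔNC, *Inhba* exceeded the highest of TM6 to TM8 2.18-fold, *Ptn* 2.01-fold, *Itih2* 1.74-fold, *Itih5* 1.61-fold, *Aqp1* 1.55-fold, *Spp1* 1.44-fold and *C4b* 1.10-fold. For *Spp1* and *Ccl2* the TM8 cells of *Angpt1*ΔNC were well above TM8 of the controls, at 69.4 against 11.9 and 14.4 and at 101 against 29.7 and 30.8.

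**Figure D2:**
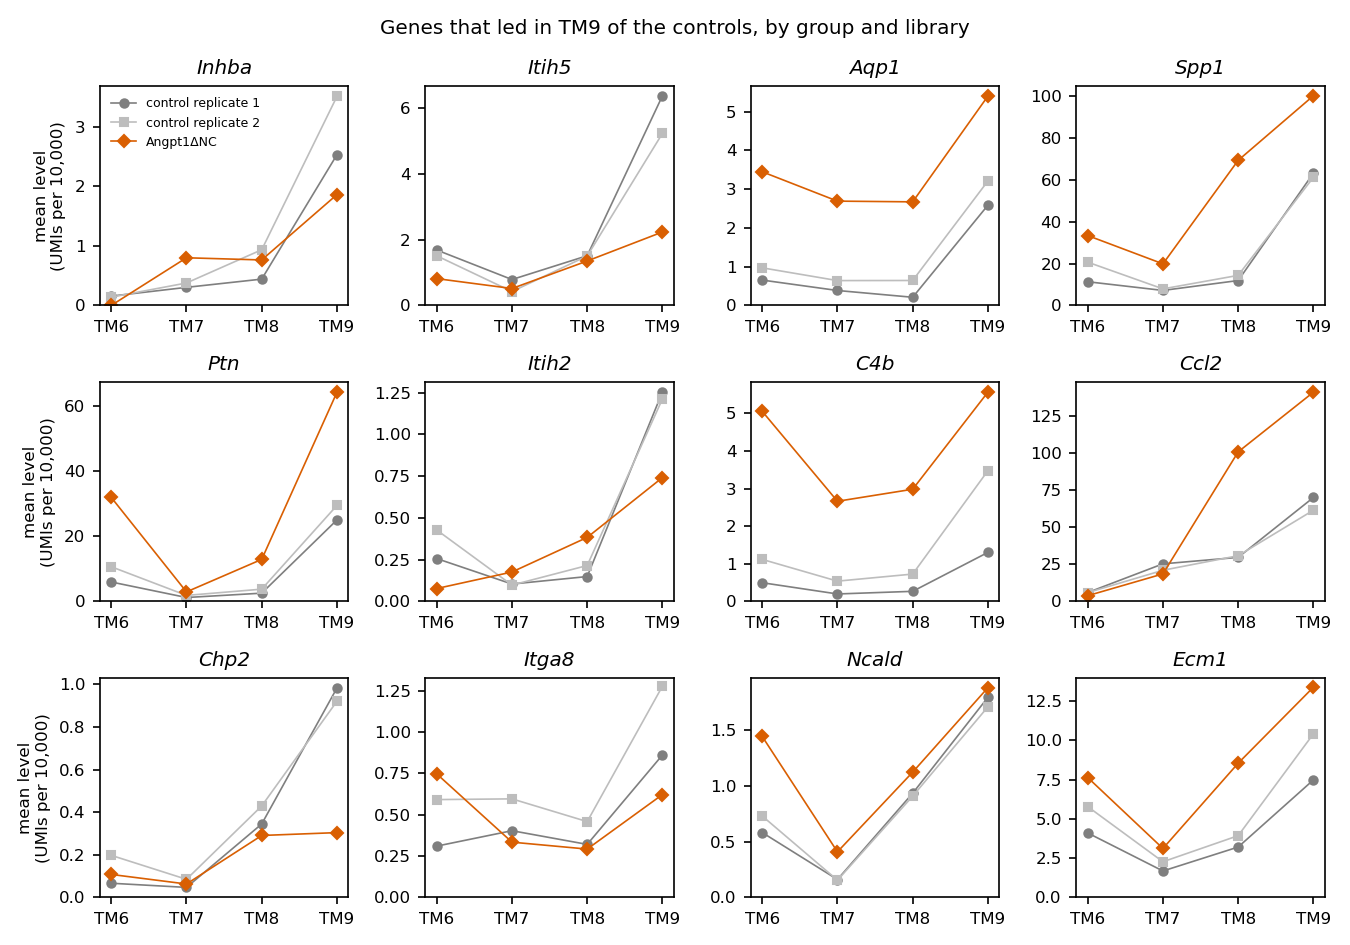
Mean level in UMIs per 10,000 of the 12 genes that led in TM9 of the controls, with 1 panel a gene, the groups TM6 to TM9 along the axis and 1 point a library (lines join the points of a library). TM9 is the highest group in both controls for every gene shown, and the *Angpt1*ΔNC points lie above the control points in TM9 for *Aqp1*, *Spp1*, *Ptn*, *C4b*, *Ccl2*, *Ncald* and *Ecm1*.

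TM9 was not uniform. After each cell was thinned to 2000 UMIs, 2082 genes were ranked by their spread between cells beyond counting noise, as squared coefficient of variation, with the smaller value of the 2 controls deciding. *Rsad2*, an interferon-induced antiviral gene, came first, at 9.57 and 15.1. *Inhba* followed at 10.2 and 8.79, and *Penk*, which encodes the opioid precursor proenkephalin, at 8.52 and 8.02. The others of the first 10 that are described here were *Tnfsf9*, the small heat shock protein gene *Cryab*, *Csf3*, which encodes granulocyte colony-stimulating factor, the eosinophil chemokine gene *Ccl11*, the adhesion molecule gene *Vcam1* and the imprinted gene *Nnat*. The leading gene *Inhba* was thus also one of the most uneven. Several of these genes differed between genotypes as well. *Csf3* had levels of 8.94 and 8.96 in the controls and 23.1 in *Angpt1*ΔNC (log2 change 1.45, SE 0.178, edgeR adjusted p = 5.35e-14), but the change was 0.27 and not past the test in male-typed cells. *Nnat* had levels of 0.968, 1.02 and 0.253 (log2 change -1.78).

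Clustering at a finer resolution divided TM9 into a larger and a smaller subgroup. The larger held 76.5%, 64.4% and 68.8% of TM9 cells of the 3 libraries and the smaller 17.2%, 30.5% and 29.4%, so the subgroup shares of *Angpt1*ΔNC lay between those of the controls, and the remaining cells fell in other clusters. The larger cells were also deeper, with medians of 5291.5, 5629 and 6271 UMIs against 3878, 4145 and 4918.5. Among the genes with the largest ratios were 2 matrix genes that were higher in the larger subgroup in every library. *Mgp*, which encodes matrix Gla protein, had levels of 83.3, 104 and 63.5 against 33.4, 26.6 and 28.0, and *Lum*, which encodes the proteoglycan lumican, 45.4, 50.9 and 44.2 against 20.8, 24.3 and 19.3. *Itih5*, *Pdgfrl*, *Pgf* and *Wnt5a* were higher there as well, with *Itih5* at 7.44, 6.73 and 2.77 against 2.83, 2.31 and 0.936. The smaller subgroup was higher in *Procr*, which encodes the endothelial protein C receptor, at 30.1, 25.3 and 13.1 against 12.5, 11.6 and 5.56, in the prostacyclin receptor gene *Ptgir*, at 2.46, 2.52 and 3.01 against 0.721, 0.626 and 1.52, and in *Gpx3*, *Tgm2* and *Sdc4*. The subgroups were made from these genes, so no test was made.

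*Angpt1* was nearly absent from TM9 of the mutant. The gene (GRCm38 chr15:42424723-42676977, minus strand) was left out of the authors' clustering, so it did not choose the cells. A UMI of it was found in 65 of 204 cells (31.9%, 25.5 to 38.7) and 111 of 298 cells (37.2%, 31.7 to 43.0) of the controls and in 1 of 327 cells (0.306%, 0.00774 to 1.69) of *Angpt1*ΔNC. In the epithelium, at medians of 15135 to 17717 UMIs per cell, the shares were 0.303%, 0.494% and 0% (a limit of 0.329% at a count of 0). The TM9 cells held 103, 176 and 1 UMIs of *Angpt1*, a 229-fold lower level in *Angpt1*ΔNC with a counting interval of 40.8 to 9090, and the edgeR test gave an adjusted p of 1.14e-40. The fitted log2 change was -7.51. Log2 changes without a control, here and below, are plain differences of log2 scaled UMIs with a small constant added, not new edgeR fits. The constant draws genes with few UMIs towards 0, so a gap to the fitted value need not reflect the control left out. For *Angpt1* the values were -6.13 without control replicate 1 and -5.77 without control replicate 2. Thinned to 2000 UMIs, the shares were 15.3%, 19.5% and 0% (upper bound 1.13%). In the controls, fewer TM9 cells held *Angpt1* than cells of the other groups, with 38.2% and 41.5% in TM8, 59.7% and 62.0% in TM7 and 58.0% and 48.4% in TM6. The mean levels of the controls gave the same lowest place to TM9, at 1.01 and 1.17 against 1.43 and 1.61 in TM8, 2.55 and 2.16 in TM7 and 2.84 and 2.20 in TM6. In *Angpt1*ΔNC, 2.30% of TM7 cells held it and no cell of TM8 or TM6, which allows up to 1.94% and 6%.

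Across the transcriptome of TM9, 8595 genes were tested on UMIs summed per library. In *Angpt1*ΔNC, 615 were higher (7.16%) and 681 lower (7.92%) at an edgeR adjusted p under 0.05, and the median log2 change of all tested genes was -0.03. In male-typed cells 148 were higher and 201 lower, of which 146 and 185 were called in all cells too. DESeq2 called 86 and 105, all among the genes that edgeR called. Without the cells that held a defining marker of another cell type (32.4%, 26.8% and 32.1% of TM9), 443 were higher and 484 lower. Since the labels were drawn from values of the same genes over all libraries, a gene that differs between genotypes can also move which cells are labelled TM9, and this was not tested. The Y-linked genes *Ddx3y* and *Eif2s3y* differed by -1.36 and -0.95 (log2) in all cells and by -0.17 and 0.14 in male-typed cells, which were chosen for holding a Y-linked UMI. *Uty* differed by -2.35, or -1.58 without control replicate 2, and by -1.15 in male-typed cells, not past the test. *H2afv*, at the transgene's locus, had levels of 1.70, 1.64 and 0.646 (log2 change -1.26, SE 0.238, adjusted p = 4.98e-06), and TM6 to TM8 together had a change of -0.93.

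**Figure D3:**
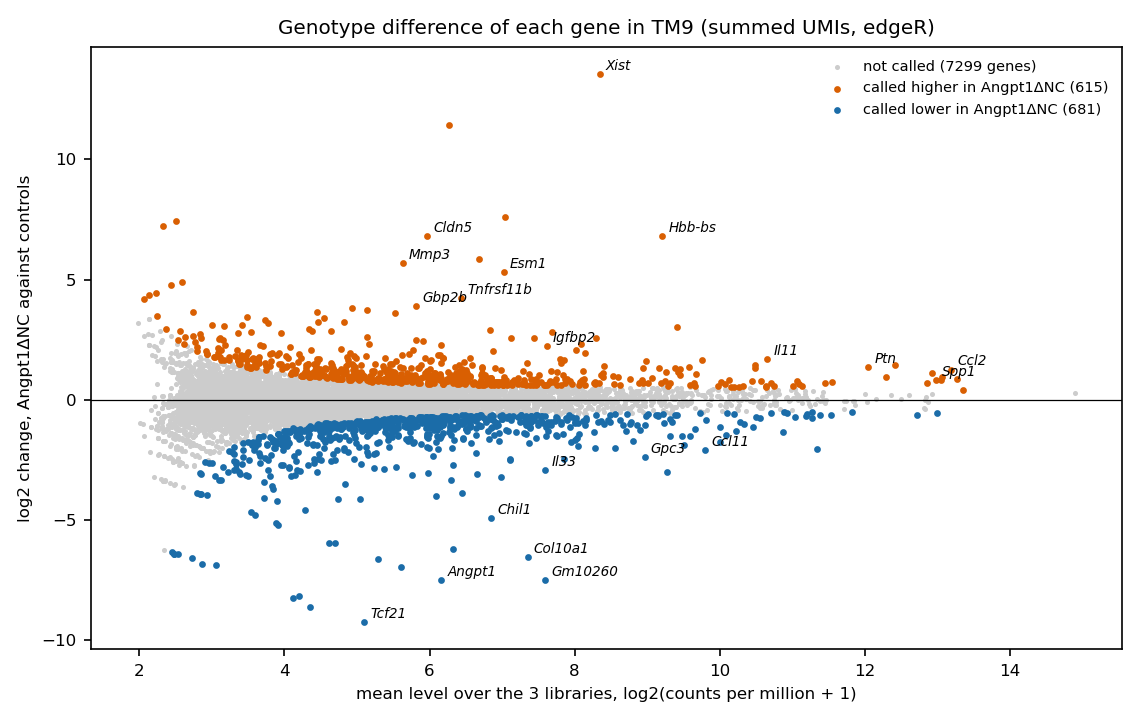
Log2 change of each of 8595 genes in TM9 between *Angpt1*ΔNC and the controls (edgeR) against its mean level over the 3 libraries as log2(CPM + 1), CPM being UMIs scaled to the same total in each library, with 615 genes called higher in orange, 681 called lower in blue and the rest in grey. *Cldn5* and *Esm1* stand among the farthest above 0, and *Angpt1*, *Gm10260* and *Col10a1* among the farthest below. The hemoglobin genes above 5, of which *Hbb-bs* is named, rest on 1 cell.

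Among the genes highest in *Angpt1*ΔNC were 2 best known from endothelium. *Esm1*, which encodes the secreted proteoglycan endocan (chr13:113209659-113218098), had levels of 0.103 and 0.163 in the controls and 3.19 in *Angpt1*ΔNC (log2 change 5.30, SE 0.276, adjusted p = 5.63e-77). Its 730 UMIs in *Angpt1*ΔNC lay in 52 cells, with 43.8% of them in 5 cells. *Cldn5*, which encodes a tight junction claudin (chr16:18776847-18778262), had levels of 0.0076, 0.0186 and 1.53 (log2 change 6.81, SE 0.380, adjusted p = 2.35e-67), with 5.90 without control replicate 1. It was found in 0.490%, 1.01% and 16.5% of TM9 cells, and in 1.21%, 1.09% and 1.10% of the deeper epithelial cells. Both genes thus rose in a minority of TM9 cells, while *Tek* and *Cdh5* were at 0 in *Angpt1*ΔNC and *Pecam1*, another endothelial marker, was in 0.306% of cells. *Tnfrsf11b*, which encodes the decoy receptor osteoprotegerin, had levels of 0.0843, 0.192 and 2.23 (log2 change 4.24, SE 0.267, adjusted p = 5.12e-53), from 461 UMIs in 120 cells of *Angpt1*ΔNC. *Gbp2b*, a guanylate-binding protein gene with close paralogs, had levels of 0.132, 0.0837 and 1.43 (log2 change 3.90), and a change of 4.20 in TM6 to TM8. For *Gbp2b* the part of read counting between copies and that of the mixed strain were not tested. All 4 genes, *Esm1*, *Cldn5*, *Tnfrsf11b* and *Gbp2b*, were above both controls in all cells and past the test in male-typed cells and by DESeq2.

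The stromelysin gene *Mmp3* was less certain. It had 0, 7 and 280 UMIs, of which 79.6% in *Angpt1*ΔNC lay in 5 cells. Its log2 change of 5.68 (SE 0.361, edgeR adjusted p = 3.91e-52) was 4.65 without control replicate 1 and 6.76 without control replicate 2, and DESeq2 gave an adjusted p of 0.698. The hemoglobin genes rested on a single cell. *Hbb-bs* had 3458 UMIs in *Angpt1*ΔNC, but 3405 of them came from 1 cell that held 5189 hemoglobin UMIs among 27540, the most UMIs of any TM9 cell. The same cell held 766 of 772 UMIs of *Hbb-bt*, 574 of 589 of *Hba-a1* and 444 of 452 of *Hba-a2*. Without it the change of *Hbb-bs* went from 6.82 to 0.81 (adjusted p = 0.105) and that of *Hba-a1* from 5.87 to 0.60 (adjusted p = 0.675), and the other 2 genes had too few UMIs to be tested. Of all genes, 613 were then higher and 678 lower.

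Besides *Angpt1*, the genes called lower in *Angpt1*ΔNC with the smallest adjusted p included a collagen, secreted proteins and several predicted or paralogous genes, of which *Gm10260* came first. *Col10a1*, which encodes collagen X (chr10:34389981-34397085), had levels of 2.41 and 1.91 in the controls and 0.0176 in *Angpt1*ΔNC (log2 change -6.54, SE 0.408, adjusted p = 5.15e-54), or -5.90 without control replicate 1. It was found in 34.8%, 28.5% and 0.917% of TM9 cells, and in 0.202%, 0.198% and 0% (a limit of 0.329%) of epithelial cells. The mutant share was thus far below both controls. *Chil1*, a chitinase-like gene that also stands in the trabecular meshwork list, had levels of 0.998, 2.20 and 0.0466 (log2 change -4.93, SE 0.352), or -4.00 without control replicate 2. *Edil3*, an integrin-binding secreted protein gene, had levels of 0.791, 1.20 and 0.0565 (log2 change -4.02), and *Angptl1*, which encodes an angiopoietin-like protein, 1.94, 1.55 and 0.184 (log2 change -3.21). Both controls were above the mutant in all of these genes. Another 5 named by the rule are paralogous or predicted genes. The part of read counting between copies and that of the mixed strain of the pools were not tested. *Gm10260* was 209-fold lower (counting interval 71.2 to 1015), *C1rb* 160-fold (28.4 to 6363), *C1s2* 122-fold (21.6 to 4869) and *BC023719* 83.0-fold (28.1 to 405), each with 1 to 3 UMIs left in *Angpt1*ΔNC. In TM6 to TM8 these 4 genes had log2 changes of -9.20, -7.15, -6.40 and -5.77. *H2-Q6*, a nonclassical class I gene, had levels of 1.35, 1.29 and 0.0775 (log2 change -3.86), and a change of -3.01 in TM6 to TM8. All of these genes were also called lower in male-typed cells and by DESeq2.

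The signalling ligands of TM9 moved in both directions. Of 23 chemokine and cytokine genes tested, 8 were higher (34.8%) and 7 lower (30.4%) in *Angpt1*ΔNC, against 7.16% and 7.92% of all genes, with a median log2 change of -0.04 against -0.03. *Il11*, which encodes a fibroblast cytokine of the IL-6 family, had levels of 8.46 and 9.18 in the controls and 27.7 in *Angpt1*ΔNC (log2 change 1.70, SE 0.175, adjusted p = 8.28e-20), and its change in male-typed cells was 1.11, also past the test. *Lif*, of the same family, had levels of 2.80, 3.23 and 8.88 (log2 change 1.61), and *Ccl2* 70.1, 61.5 and 141 (log2 change 1.26, SE 0.139). In male-typed cells the changes of *Lif* and *Ccl2* were 0.84 and 0.76, no longer past the test. *Il6* had levels of 2.12, 2.93 and 3.84 (log2 change 0.73) and a change of -0.09 in male-typed cells. On the lower side, *Il33*, which encodes an alarmin, had levels of 2.67, 2.26 and 0.384 (log2 change -2.92, SE 0.276, adjusted p = 1.51e-23), and *Ccl11* 14.0, 8.81 and 2.73 (log2 change -2.10, SE 0.219). Abundant chemokines such as *Cxcl1*, at 33.6, 42.1 and 35.2, and *Cxcl12*, at 16.2, 20.3 and 15.0, did not pass the test. The call of *Cxcl9* rested on control replicate 2, at levels of 0.288, 1.70 and 0.252, with a log2 change of -1.58 that was 0.03 without that library and -2.20 without control replicate 1. *Il34* had a log2 change of 1.68, or 1.08 without control replicate 2. Of the 15 called members, 6 were called in male-typed cells, and DESeq2 called 7 of the 14 it could adjust.

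Of 18 growth and neurotrophic factor genes tested, 4 were higher (22.2%) and 5 lower (27.8%), against 7.16% and 7.92% of all genes, with a median of -0.48. *Ptn* went from 25.1 and 29.5 to 64.3 (log2 change 1.34, SE 0.155, adjusted p = 7.24e-16), with 1.58 in male-typed cells. *Gdnf*, which encodes a neurotrophic factor, had levels of 0.976, 0.905 and 0.186 (log2 change -2.04, SE 0.283), *Ntf3*, which encodes neurotrophin-3, changed by -1.97, and *Pgf*, which encodes placental growth factor, had levels of 1.94, 1.99 and 0.706 (log2 change -1.43). These neurotrophic factors were thus lower together with *Pgf*. *Vegfa*, at 6.40, 6.77 and 6.07, had a change of 0.01 (adjusted p = 0.976). Of the 9 called, 6 were called in male-typed cells and 3 by DESeq2.

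In the lists of receptors and their partners, more genes were lower than higher. In the angiopoietin and TEK list, 7 of 12 members could be tested and 3 were lower (42.9%, against 7.92% of all genes), *Angpt1*, *Angptl1* and *Tie1*. *Angpt1* is the deleted gene, so its call was set by the design, and it is counted in this share and in the median of -0.60. *Tie1* fell from 25 UMIs in both controls together to 2, or 10.3-fold (2.56 to 89.5). Its log2 change of -3.19 was -1.83 without control replicate 1. Of 12 PDGF receptor, neuropilin and semaphorin genes, 1 was higher (8.33%, near the 7.16% of all genes) and 3 lower (25%), with a median of -0.14. The marker *Pdgfrb* itself fell from 2.86 and 2.61 to 1.38 (log2 change -0.91, SE 0.237, adjusted p = 0.00187), with a change of -0.15 in TM6 to TM8, and DESeq2 did not call it, with an adjusted p of 0.12. *Pdgfrl*, a PDGF receptor-like gene, had levels of 3.28, 3.05 and 0.911 (log2 change -1.69, SE 0.246), while *Pdgfra*, at 2.59, 3.68 and 3.93, and *Nrp2* did not pass. *Sema3g*, a secreted semaphorin, had 3 UMIs in the controls and 30 in *Angpt1*ΔNC, 12.2-fold more (3.78 to 62.3), with a log2 change of 3.63, or 2.40 without control replicate 1, and *Sema3d* was 7.95-fold lower (2.46 to 40.8), with -2.81, or -2.06 without control replicate 2. Of 13 endothelin and retinoic acid genes, none was higher and 6 were lower (46.2%), with a median of -0.64. *Cyp26a1*, which encodes a retinoic acid-degrading enzyme, had levels of 0.948, 1.10 and 0.208 (log2 change -2.01, SE 0.273), and *Rdh10*, which encodes a retinol dehydrogenase of retinoic acid synthesis, 4.21, 4.25 and 2.01 (log2 change -0.92). The ligand gene *Edn3*, at 6.71, 5.68 and 3.51 (log2 change -0.64), and the receptor gene *Ednra*, at 1.32, 1.37 and 0.685 (log2 change -0.92), fell as well. *Aldh1a3*, another enzyme of retinoic acid synthesis, had a change of -2.57 that was -1.31 without control replicate 2. Male-typed cells kept 2 of 2 called members that could be tested in each of the angiopoietin and PDGF lists, and 4 of 6 in the endothelin and retinoic acid list. Of the called members that DESeq2 could adjust, it called 2 of 2, 1 of 2 and 1 of 5 in these lists.

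**Figure D4:**
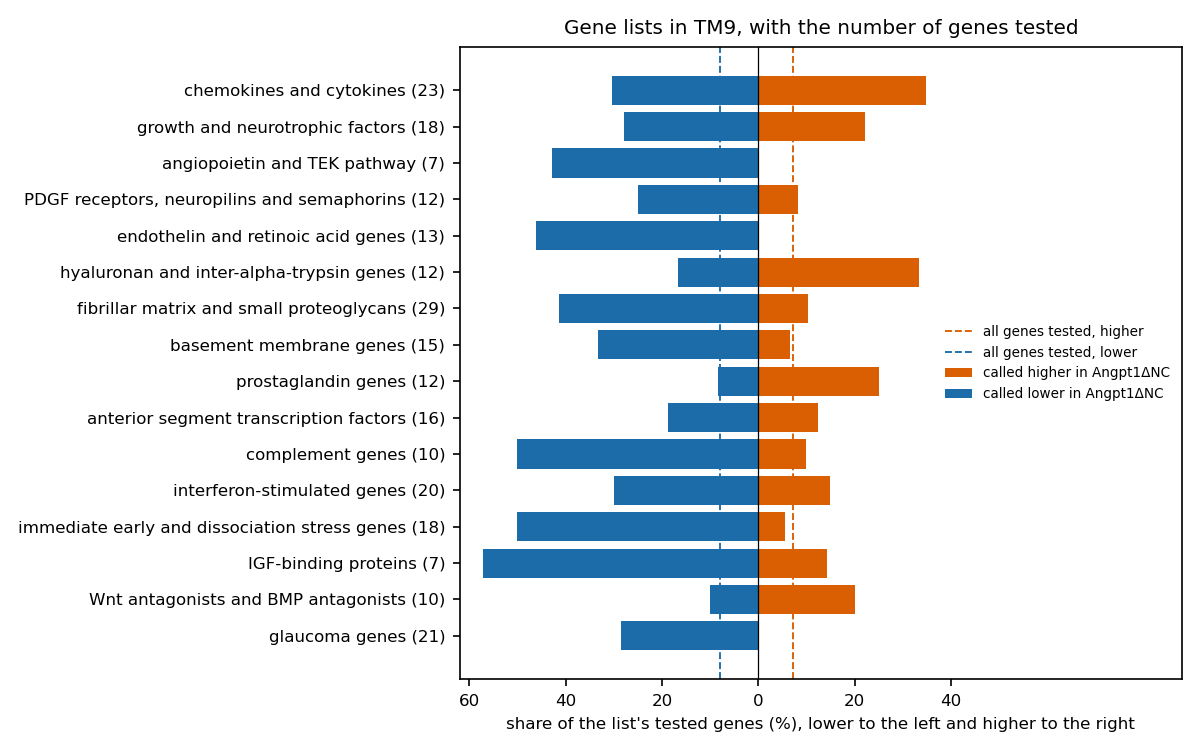
Share of each list's tested genes, in percent, that were called lower (to the left) and higher (to the right) in TM9 of *Angpt1*ΔNC, with the number of genes tested in parentheses and dashed lines at the shares of all genes tested, 7.92% and 7.16%. The endothelin and retinoic acid, complement, stress and IGF-binding protein lists extend farthest to the left, and the chemokine and hyaluronan lists farthest to the right. The higher genes of the hyaluronan list include *Spp1* and *Ecm1*, which are not hyaluronan genes. The angiopoietin and glaucoma lists count *Angpt1*, the deleted gene.

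Matrix genes of TM9 were lower more often than higher in *Angpt1*ΔNC. Of 29 fibrillar matrix and small proteoglycan genes, 3 were higher (10.3%) and 12 lower (41.4%), against 7.16% and 7.92% of all genes, with a median of -0.45. *Mfap4*, a microfibril-associated gene, had levels of 15.7 and 13.7 in the controls and 5.90 in *Angpt1*ΔNC (log2 change -1.30, SE 0.201, adjusted p = 7.54e-09), and *Fbln1*, which encodes fibulin-1, changed by -1.52 (SE 0.215). *Col14a1* changed by -2.49, *Col11a1* by -1.79 and *Fbn1*, which encodes fibrillin-1, by -0.67. *Mfap5*, already the lowest gene of TM9 against its neighbours, fell by 2.86 on the log2 scale, or by 2.27 without control replicate 1. The abundant *Dcn*, which encodes decorin, went the other way, from 63.5 and 67.7 to 114 (log2 change 0.93, SE 0.142, adjusted p = 3.92e-09). *Lum*, at 40.1, 42.2 and 36.6, and *Col1a1*, at 8.87, 9.52 and 6.19 (adjusted p = 0.0539), did not pass, and *Eln*, higher at a log2 change of 0.74 in all cells, had -0.51 in male-typed cells. Male-typed cells kept 8 of the 15 calls and DESeq2 5. Of 15 basement membrane genes, 1 was higher (6.67%, near the share of all genes) and 5 lower (33.3%), with a median of -0.25. *Lama2*, which encodes the laminin alpha-2 chain, had levels of 2.01, 2.86 and 1.15 (log2 change -0.91) and *Sparc*, a matricellular gene, 16.9, 17.7 and 24.5 (log2 change 0.57). DESeq2 called 0 of these 6 and male-typed cells 1.

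Among the 12 genes tested in the hyaluronan and inter-alpha-trypsin list, 4 were higher (33.3%) and 2 lower (16.7%), against 7.16% and 7.92% of all genes. The list also holds *Spp1* and *Ecm1*, which are neither, and both were among the higher genes. The median was -0.03, and genes that led in TM9 stood on both sides. *Spp1* had levels of 63.3, 61.3 and 100 (log2 change 0.82, SE 0.143, adjusted p = 5.28e-07) but a change of 0.13 in male-typed cells, and *Tnfaip6*, which encodes the protein that transfers heavy chains to hyaluronan, 19.3, 18.9 and 27.5 (log2 change 0.64). The heavy chain genes went down, *Itih5* from 6.38 and 5.23 to 2.23 (log2 change -1.26) and *Itih2* from 1.25 and 1.21 to 0.741 (log2 change -0.66). High control levels in TM9 had also chosen both genes, so part of a fall could come from that choice, which was not tested. In male-typed cells the changes were -1.20 and -0.30, and *Itih2* was not past the test there or by DESeq2. *Has2*, a hyaluronan synthase gene, had a change of 0.71 (adjusted p = 0.0471) that no longer passed without the hemoglobin-rich cell (0.55, adjusted p = 0.156). Male-typed cells kept 1 of the 6 calls and DESeq2 2. Of 12 prostaglandin genes, 3 were higher (25%) and 1 lower (8.33%, near the share of all genes), with a median of 0.03. *Ptges*, which encodes a prostaglandin E synthase, had levels of 4.41, 5.64 and 10.6 (log2 change 1.14, SE 0.195), *Ptgir* 1.03, 1.19 and 1.95 (log2 change 0.94) and *Ptgis*, the prostacyclin synthase gene, 0.311, 0.705 and 1.40 (log2 change 1.45, or 2.19 without control replicate 2). The prostacyclin synthase and its receptor were both among the higher genes, while the inducible cyclooxygenase gene *Ptgs2*, at 21.4, 36.4 and 24.8, had a change of -0.01. Male-typed cells and DESeq2 each kept 1 of the 4 calls.

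In the complement, stress and IGF-binding protein lists more genes were lower than higher. Of 10 complement genes tested, 1 was higher (10%) and 5 lower (50%), against 7.16% and 7.92% of all genes, with a median of -0.86. *C4b* had levels of 1.30, 3.48 and 5.57 (log2 change 1.42, SE 0.210), a change of 2.25 without control replicate 2, and was not called by DESeq2. *C3* had levels of 0, 0.400 and 0.0234, and its change of -2.93 was 1.54 without control replicate 2, so that it rested on that library. The paralogs *C1rb* and *C1s2* were also among the 5. Male-typed cells kept 4 of these 6 calls and DESeq2 3. Of 18 immediate early and dissociation stress genes, 1 was higher (5.56%) and 9 lower (50%), with a median of -0.52. *Fosb* had levels of 12.7, 14.7 and 4.55 (log2 change -1.46, SE 0.205, adjusted p = 1.13e-10), *Hspa1a*, a heat shock gene, 1.55, 1.35 and 0.438 (log2 change -1.65), and *Jund* 29.6, 26.5 and 15.6 (log2 change -0.75). *Dusp1*, a phosphatase gene of the same early response, was higher, at 2.80, 2.33 and 4.94 (log2 change 0.96). These genes respond to dissociation itself, and the part of handling in these differences was not tested. Male-typed cells kept 4 of the 10 calls, as did DESeq2. Of 7 genes tested in the IGF-binding protein list, *Igfbp2* was higher (14.3%), at 0.992, 0.755 and 3.74 (log2 change 2.23, SE 0.223, adjusted p = 5.75e-21), and 4 were lower (57.1%). The 7 include *Htra1*, a protease gene and not an IGF-binding protein gene, which was not called. *Igfbp7* had levels of 95.8, 83.7 and 57.7 (log2 change -0.55), *Igfbp5* 45.5, 33.6 and 25.5 (log2 change -0.50) and *Igfbp6* 1.13, 0.583 and 0.170 (log2 change -2.34, or -1.75 without control replicate 1). Male-typed cells kept 4 of these 5 calls and DESeq2 2.

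Interferon-stimulated genes were divided, with 3 of 20 higher (15%) and 6 lower (30%), against 7.16% and 7.92% of all genes, and a median of -0.21. *Ifit3* had levels of 4.82, 3.50 and 7.77 (log2 change 0.89), whereas the neighbouring *Ifit3b*, which can share reads with it, had 3.06, 1.29 and 1.40, with a change of -0.67 that was 0.11 without control replicate 1. *Oasl1* changed by -2.20, or -1.57 without control replicate 1, and *Isg15*, at 31.0, 22.9 and 22.7, did not pass. Male-typed cells and DESeq2 each kept 1 of the 9 calls. Of 16 anterior segment transcription factor genes, 2 were higher (12.5%) and 3 lower (18.8%), with a median of -0.05. *Foxc2* had levels of 0.542, 0.829 and 1.45 (log2 change 1.11), and *Twist1* 2.29, 2.07 and 1.04 (log2 change -0.91). *Foxc1*, which acts in anterior segment development, did not pass, at 1.65, 2.38 and 1.94. *Tcf21*, a mesenchymal factor gene, had 127 UMIs in the controls and 0 in *Angpt1*ΔNC, at least 35.5-fold lower with a floor of 3 counts in that library. Male-typed cells and DESeq2 each kept 1 of these 5 calls. Of 10 genes tested in the Wnt and BMP antagonist list, 2 were higher (20%) and 1 lower (10%, near the share of all genes), with a median of 0.10. The tested genes include the BMP family ligand genes *Bmp4* and *Gdf10*, neither of them called. *Sfrp4* had levels of 0.0738, 0.0481 and 0.464 (log2 change 3.24), *Dkk2* 0.559, 0.551 and 1.09 (log2 change 1.00), and *Nog*, which encodes noggin, changed by -1.54. Of these 3, male-typed cells and DESeq2 each kept 1.

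Of 21 glaucoma-associated genes tested, 0 were higher and 6 lower (28.6%), against 7.16% and 7.92% of all genes. The median, which includes *Angpt1*, was -0.36. *Cyp1b1*, which encodes a cytochrome P450 mutated in congenital glaucoma, had levels of 1.77 and 2.20 in the controls and 0.343 in *Angpt1*ΔNC (log2 change -2.49, SE 0.265, adjusted p = 1.19e-18). *Ltbp2*, a microfibril-associated gene, changed by -1.88, and *Bicc1*, *Abca1*, *Loxl1* and *Angpt1* were the others. Of these, *Angpt1* is the deleted gene, so its call was set by the design. Beyond *Angpt1* and *Cyp1b1*, none of these passed the test in male-typed cells, which kept 2 of the 6 calls, as many as DESeq2 called.

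Whether a genotype difference was that of the neighbouring groups was tested as the interaction of genotype with group, over 10094 genes and 6 sums, TM9 and TM6 to TM8 together in each library. The differences given below are the log2 interaction fitted to these sums, which need not equal the gap between the separately fitted changes. The interaction passed the test for 361 genes (3.58%), with the change more positive in TM9 for 154 and more negative for 207. With TM6, TM7 and TM8 kept as separate sums, 37 genes passed, all among the 361. *Rbp4*, which encodes the retinol carrier of plasma, had levels of 3.18, 3.48 and 3.40 in TM9, a log2 change of 0.16 against -2.10 in TM6 to TM8 (difference 2.26, adjusted p = 1.24e-09). *S100a6*, a calcium-binding protein gene, had levels of 8.13, 10.4 and 22.1, a change of 1.30 against -0.14 (difference 1.45, adjusted p = 3.90e-09). *Col10a1* was lower in TM9 by far more than in TM6 to TM8, at -6.54 against -1.52 (difference -5.03, adjusted p = 6.93e-09). In TM8 it was found in 43.7% and 48.0% of control cells and still in 14.8% of *Angpt1*ΔNC cells, with levels of 2.85, 3.70 and 1.08. Its mutant level was 0.400 in TM7 and 0.130 in TM6, against 0.0176 in TM9. *Esm1* had a change of 5.30 against 2.08 (difference 3.28, adjusted p = 6.93e-09). With separate sums the adjusted p was 0.0619 for *Rbp4*, 0.388 for *S100a6*, 0.107 for *Esm1* and 0.00364 for *Col10a1*. *Hbb-bt*, the other gene of the first 5, rested in TM9 on the hemoglobin-rich cell. Without any cell of TM6 to TM9 that held over 1% hemoglobin UMIs, 282 genes passed.

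For the genes that led in TM9 of the controls, the changes of TM9 and of TM6 to TM8 are given as values only, since control levels had chosen these genes. *Spp1* had log2 changes of 0.82 and 2.03, *Aqp1* of 0.98 and 2.49 and *C4b* of 1.42 and 2.76, so that these values were larger in TM6 to TM8, as was that of *Ptn*. *Inhba* had -0.53 and 0.63, *Itih5* -1.26 and -0.10, and *Itih2* -0.66 and 0.82. These values stand beside the shares of *Angpt1*ΔNC cells labelled TM8 that lay nearest to the TM9 profile of a control, 75.5% and 59.4%. For *Angpt1*ΔNC cells labelled TM6 and TM7 the shares were 38.0% and 15.5% by control replicate 1, and 36.0% and 8.05% by control replicate 2. The part of these borders in the log2 changes was not tested.

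**Figure D5:**
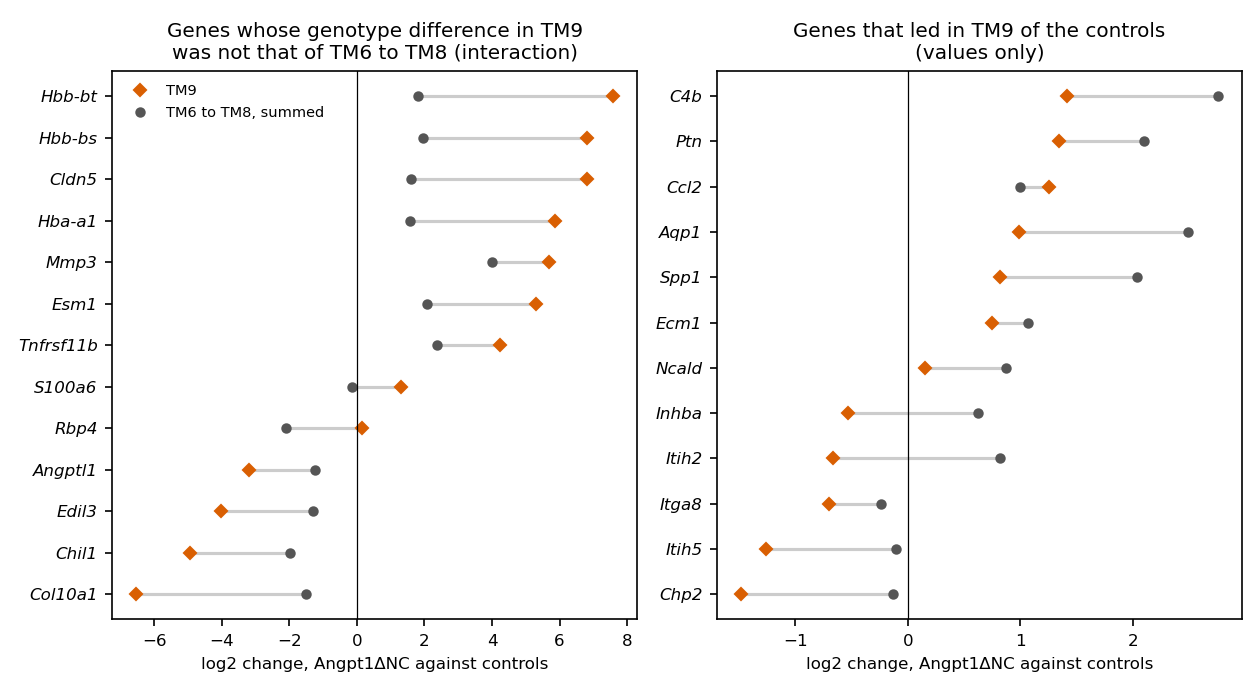
Log2 change between *Angpt1*ΔNC and the controls in TM9 (diamonds) and in TM6 to TM8 summed (circles), for named genes whose interaction passed the test with 6 sums (left) and for the 12 genes that led in TM9 of the controls (right, with no test). *Col10a1* lies at -6.54 in TM9 and -1.52 in TM6 to TM8, and the TM9 values of the hemoglobin genes on the left rest on 1 cell.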

How the data were processed

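Per the labels, angle and limbus tissue was dissociated and its cells captured with 10x droplets. The authors made UMI counts against mm10 with Cell Ranger 2.1.1 per the submitters' processing notes, removed cells under 200 genes, under 1000 UMIs or over 10% mitochondrial UMIs and doublets called with scDblFinder, and clustered with Seurat 3.1.3. The deposited tables of the kept cells hold a group label per cell and integrated values on a natural log scale, used here only to rebuild clusters (Seurat 5.3.0, 18 components, resolution 0.5, and 1 for the subgroups). All levels come from the deposited counts. No further cell filter or doublet caller was applied. The members and gene lists were chosen with earlier results of these data known.

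UMIs of TM9 were summed per library and tested with edgeR 4.0.16 in R 4.3.3 (quasi-likelihood F-test, TMM factors, filterByExpr, p adjusted by Benjamini-Hochberg, called under 0.05). With 3 sums, 1 residual degree of freedom is left, and the pools may differ technically as well as biologically. The median prior degrees of freedom were infinite. For most genes the test thus took the variance from the trend over all genes, not from the gene's own spread. On simulated counts for 8259 genes of this comparison, 98% of 4-fold and 62% of 2-fold changes were recovered with 8 false calls. The changed genes were drawn only from those above the median level, and all simulated libraries had the dispersion of this fit. These figures thus do not cover genes at lower levels or added variation of the *Angpt1*ΔNC pool. Levels against TM6 to TM8 had 0.1 added before ratios. Named genes were the 12 highest and 8 lowest against TM6 to TM8 in both controls, the 10 with the smallest adjusted p in each direction beyond a log2 change of 1, the first 5 of the interaction, the 10 with the largest spread between cells, and list members, and some genes these rules name are not reported here. Alternatives were DESeq2 1.42.0, RLE factors, no filter on low counts, equal cells per library, male-typed cells, cells without a marker of another cell type, TM9 cells of a rebuilt cluster, thinning, and leaving out each control. For log2 changes, leaving out a control meant a difference of log2 scaled UMIs with a small constant added. No edgeR model was fitted there, and values at low counts are drawn towards 0. Positions are from GENCODE on GRCm38. Python 3.11.15 with numpy 2.4.6, scipy 1.17.1, pandas 2.3.3 and matplotlib 3.10.9 was used.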

Additional observations from a re-analysis of the deposited data

Results flagged for a closer look

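The genes below had a genotype difference in TM9 that was not that of TM6 to TM8 by the interaction test (edgeR). Each value is the fitted log2 interaction, which need not equal the gap between the separately fitted changes of TM9 and TM6 to TM8. Among the genes lower in TM9 of *Angpt1*ΔNC they were *Col10a1* at -5.03, *Chil1* at -2.92, *Edil3* at -2.71 and *Angptl1* at -1.97. Among the genes higher there they were *Cldn5* at 5.27, *Esm1* at 3.28, *Tnfrsf11b* at 1.90, *Mmp3* at 1.81 and *S100a6* at 1.45. *Rbp4* differed by 2.26, with a change in TM9 that did not pass the test. *Hbb-bt* at 5.55, *Hbb-bs* at 4.44 and *Hba-a1* at 3.99 rest in TM9 on the 1 hemoglobin-rich TM9 cell of *Angpt1*ΔNC. TM8 also held such cells, with up to 4155 hemoglobin UMIs in 1 cell of control replicate 1 and 4596 in 1 of *Angpt1*ΔNC. These calls come from 6 sums. With TM6, TM7 and TM8 as separate sums, the edgeR adjusted p was 0.00364 for *Col10a1*, 0.0152 for *Chil1*, 0.0214 for *Cldn5*, 0.0261 for *Edil3* and 0.00868 for *Hbb-bt*. The others were no longer past the test, at 0.0619 for *Rbp4*, 0.107 for *Esm1*, 0.329 for *Angptl1*, 0.340 for *Hbb-bs*, 0.382 for *Hba-a1*, 0.388 for *S100a6*, 0.514 for *Tnfrsf11b* and 0.608 for *Mmp3*.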

How the results depend on the processing

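The limits are 1 *Angpt1*ΔNC library, a difference in sex between the pools, depths near 5000 UMIs per cell and labels drawn from the same genes. No paired analysis was possible because *Angpt1*ΔNC has 1 library and shares fewer than 2 replicate numbers with the controls. The counts of genes higher and lower, 615 and 681, became 86 and 105 with DESeq2, 148 and 201 in male-typed cells, 308 and 366 in TM9 cells of the rebuilt cluster and 329 and 422 with a log2 change beyond 1. They stayed within 1.5 times with RLE factors, no filter, equal cells, no cells with another type's marker and no hemoglobin-rich cell. The interaction's 361 genes became 37 with 12 sums. The share ratio of 1.86 became 2.07 over TM1 to TM11 and 3.08 over TM6 to TM9. Over TM6 to TM9 with each cell given to the nearest profile of control replicate 1 or 2, and against the control that did not give the profile, it was 3.03 and 6.70, so that the denominator and the control differ as well. The *Angpt1*-positive share of the controls, 34.6% on average, was 17.4% after thinning. The 7 genes leading in TM9 were 11 in the rebuilt cluster and 11 to 13 when a control was left out, and the 1 lowest gene was 2 at a detection minimum of 10%, 0 after thinning and 1 to 2 when a control was left out. The direction reversed for *Cxcl9* and *C3* without control replicate 2 and for *Ifit3b* without control replicate 1 (-2.20 to 0.034, -3.33 to 1.54 and -1.20 to 0.11 over both controls left out in turn), and for *Il6* (-0.095), *Eln* (-0.51) and *Eif2s3y* (0.14) in male-typed cells. Of the 142 called genes described or listed, 66 of the 135 given in male-typed cells and 58 of the 137 given by DESeq2 were still called in the same direction. The male-typed cells are also fewer; otherwise the cause of these differences was not tested. The nearest profiles, the finer resolution, the log2 limit and the hemoglobin limit were chosen after seeing the data.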

Other observations

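The 54 TM9 cells of *Angpt1*ΔNC with a UMI of *Cldn5* were looked at after its values were seen, and the shares below are a description with no test. *Esm1* was found in 35.2% of them and in 12.1% of the other TM9 cells of the library, and *Stc1*, which encodes the secreted hormone stanniocalcin-1, in 75.9% and 44.7%. *Gja4*, a gap junction gene of vessels, was found in 64.8% and 53.1%. No UMI of the endothelial genes *Pecam1*, *Cdh5* and *Kdr* was found in the *Cldn5*-positive cells, which are too few to show a share of a few percent, and *Egfl7* was found in 7.41% against 2.20%, and in 3.62% of the deeper epithelial cells. No share in the epithelium is given for *Esm1*, *Stc1* and *Gja4*. The *Cldn5*-positive cells were deeper, with a median of 7167.5 UMIs against 5832, and the part of depth in these shares was not tested.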
